A study of Mus musculus with 12 samples.

Results

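The genes within 10 Mb of Tlr9 on mouse chromosome 9 were measured by 462 array probes, of 37125 probes tested across the genome. A probe was included when the files placed it (mouse build mm9) between 10 Mb below and 10 Mb above the Tlr9 probe at chr9:106128979-106129038 and when it was well above background on at least 2 of the 12 arrays. The Tlr9 probe itself was left out. Of 654 probes in the window, 192 did not reach that signal. Of the 462 members, 409 carried a reference gene name, covering 232 genes, and 106 of those genes had at least 2 member probes. Distances run from the Tlr9 probe to the probe of a gene. The window holds 170 members below Tlr9 (negative distances) and 292 above it (positive distances). At its edges the differences were small, with no test applied to them. At -9.93 Mb just inside, a Tfdp2 probe differed by 0.06 on the log2 scale between Tlr9-deficient and other genotypes, and another at -10.01 Mb just outside differed by 0.09. At the upper edge the last probe inside, at 9.98 Mb, differed by 0.14 and the next one outside, at 10.35 Mb, by -0.19.

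The arrays measured ear skin RNA of C57BL/6J mice, each array from a pool of 6 to 8 mice. Mice lacked Card14, Tlr7, Tlr9 or both receptors (Card14-/-, Tlr7-/-, Tlr9-/- and Tlr7-/-Tlr9-/-) or carried none of these deletions (WT), and were either untreated or taken 4 h after a single dose of a cream with 5% imiquimod (IMQ) on both ears. Every group had 1 array except the IMQ groups of Tlr7-/-Tlr9-/- and Card14-/-, which had 2 each, and no group received cream without IMQ. The sources used here do not say whether the 2 arrays of a group came from separate pools, so repeat arrays were averaged to a single value per group. In the main fits, p-values measure the spread between group values. For Tlr9 status this spread includes differences between genotypes. Only the comparison of the repeat arrays on a single slide measures the spread between arrays of a group, which may be technical in part. The 5 arrays of Tlr9-/- and Tlr7-/-Tlr9-/- mice are called Tlr9-deficient below and were compared with the other 7. All values are log2 signals after quantile normalization, and a difference of 1 is a 2-fold change.

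Tlr9 is an endosomal receptor for unmethylated CpG DNA, and Tlr7, for which imiquimod is a ligand, recognises single-stranded RNA. A targeted allele is commonly made in embryonic stem cells of a given strain and then backcrossed, and it can keep a stretch of that strain's chromosome around the target, known as passenger or flanking DNA. Genes that lie in such a stretch can differ between a knockout line and its controls irrespective of what the deleted gene does. The labels do not name the strain in which the alleles were made, and no genotype of the flanking DNA was measured, so a difference that belongs to neighbouring DNA and one that follows from the loss of Tlr9 cannot be told apart. A base change under a probe and a change in RNA level cannot be told apart either.

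The probes that carry the result are shown because each of them reads a single short stretch of RNA. The lines give the middle 30 bases (16 to 45) of each 60-base probe, 5′ to 3′ as the files hold them, with no part marked. They are 8 of the 10 members that differed past the threshold, with the other Hemk1 probe for comparison.
LOC102641261 (chr9:104970289-104970348): agactaattgaagaagaaaatagattgcag
Wdr82 (chr9:106075205-106075264): ttgtctgacatgtttggtgcaatacatagc
Abhd14a (chr9:106342385-106342444): tcatttcacaagcacaataaagaaaagcct
Abhd14b (chr9:106355187-106355246): agaggagaccgacttcggaggtccctgaaa
Hemk1 (chr9:107233423-107233482): ataaggaggaagctgctgttagtctgaccc
Hemk1, other probe (chr9:107230767-107230826): tcacccacatcttgaccttggcaccccagc
Hyal3 (chr9:107489520-107489579): ccccagcgtatctatagagaagtaaaatct
Nme6 (chr9:109744992-109745051): cctgacttcagtgaacagcgctggtatgag
Nme6, another probe (chr9:109745416-109745475): agcatccgacctggcttccttaataaattc

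The arrays matched their labels for Tlr7, whose probe at chromosome X position 163742863 read at most 5.85 on Tlr7-deficient arrays and at least 7.36 on the others, and for Card14, at most 9.89 against at least 10.82. The Tlr9 probe checked nothing: it read 10.95 to 11.33 on Tlr9-deficient arrays and 11.05 to 11.39 on the rest, and whether it lies outside the deleted part is not given. Between 60.1% and 65.7% of spots were well above background on every array. Keratinocyte, fibroblast, endothelial, fat, muscle and immune markers were detected (the B cell marker Cd79a on 1 array), and none of the 17 marker types had a marker whose Tlr9-deficient arrays all lay on a single side of the others. Hair follicle markers varied most: the log2 of their summed signal ran from 7.03 to 14.21 on Tlr9-deficient arrays and from 8.93 to 16.06 on the rest. For fibroblast markers the ranges were 17.95 to 19.24 and 18.81 to 19.71. Their part in the results below was not tested. In whole skin, fewer cells of a type and less RNA per cell cannot be told apart.

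Tlr9-deficient genotypes differed from the others at a small set of genes around Tlr9. Of the 462 members, 10 passed an adjusted p of 0.05 between Tlr9-deficient and other genotypes, 2 higher and 8 lower. That is 2.16% of members, against 0.0862% of all probes tested (32 of 37125; limma with Benjamini-Hochberg adjustment over all probes). By direction, 0.0242% of all probes were called higher and 0.062% lower. Among those lower were Abhd14b, Hyal3, LOC102641261, Abhd14a and Nme6, and Hemk1 and Wdr82 were higher. At an unadjusted p under 0.05 there were 84 members, 18.2%, against 5.1% of all probes, and these split into 41 higher and 43 lower. The typical member moved little: the median absolute difference was 0.13, beside 0.10 over all probes.

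The count of 10 moved with the design. It was 17 with the slide as a block and 6 from the arrays of slide 1, which held all untreated groups and the IMQ groups of WT, Tlr7-/- and Tlr9-/-. It fell to between 3 and 5 when any 1 genotype was left out. Tlr9 status varies only between genotypes, yet the untreated and IMQ values of a genotype enter the fit as separate values. Where these values share a genotype effect, the p-values can be too small and the count of calls too high. A fit with genotype as 5 levels takes its error from within genotypes, so it leaves out the spread between them. With genotype as 5 levels the count was 3, and the calls ended at Hemk1 (limma adjusted p = 0.0562), Abhd14a (0.0562), LOC102641261 (0.146), Nme6 (0.189) and Wdr82 (0.273).

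**Figure D1:**
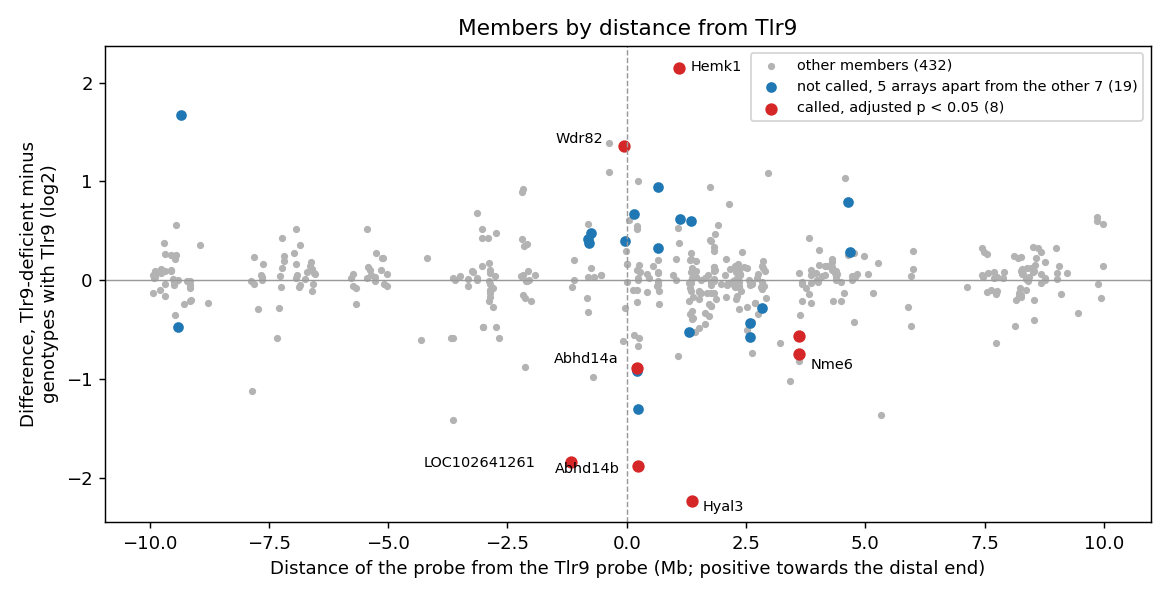
Difference between Tlr9-deficient genotypes and genotypes with Tlr9 (log2, vertical axis) against distance from the Tlr9 probe (Mb, horizontal axis) for the 459 members shown. The 8 called members shown (red) lie between -1.16 and 3.62 Mb, and 19 more members (blue) have all 5 Tlr9-deficient arrays on a single side of the other 7.

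The smallest adjusted p was at Abhd14b, which encodes an alpha/beta hydrolase-fold protein and lies 0.23 Mb above Tlr9. Its signal on Tlr9-deficient arrays was 10.89 (untreated Tlr9-/-), 10.58 (untreated Tlr7-/-Tlr9-/-), 10.53 (IMQ Tlr9-/-) and 10.52 and 10.39 (IMQ Tlr7-/-Tlr9-/-). The other 7 arrays ran from 12.30, with a median of 12.36, to 12.72. No value of either set came within 1 log2 unit of the other set. The mean was 3.67-fold lower (difference -1.88, SE 0.08, limma adjusted p = 2.55e-05). Abhd14a, the neighbouring gene of the same family at 0.21 Mb, read 10.35, 10.55, 10.16, 10.35 and 10.47 on those 5 arrays. The other 7 arrays spanned 11.10 to 11.35 with a median of 11.25, so the sets did not overlap (difference -0.89, SE 0.08, limma adjusted p = 0.0068). A dimmer Abhd14a probe was also lower on all 5 arrays, by a difference of -0.92 (SE 0.22), but did not pass the test (limma adjusted p = 0.553). The Abhd14a call was lost when any genotype but Tlr7-/-Tlr9-/- was left out (limma adjusted p 0.0609 to 0.184).

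Hemk1, a methyltransferase for mitochondrial translation release factors, rose the most among the members that passed, at 1.1 Mb. Its probe read 7.28, 7.30, 6.39, 7.17 and 7.26 on Tlr9-deficient arrays and 4.30 to 5.59, median 4.94, on the rest. The mean was 4.45-fold higher (difference 2.15, SE 0.19, limma adjusted p = 0.00587), and the IMQ Tlr9-/- array stood below the other 4. With normexp the difference was 1.05 and it was 1.37 in the authors' deposited log2 table, both past the threshold. Leaving out any genotype but WT ended the call (limma adjusted p 0.0564 to 0.0919). The other Hemk1 probe did not show this. It read 7.65 to 7.88 on Tlr9-deficient arrays, inside the 6.93 to 8.44 of the rest (difference 0.37, SE 0.24, limma adjusted p = 0.973). The difference at this gene thus held for a single probe of 2.

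Hyal3, a member of the hyaluronidase family at 1.36 Mb, read 1.88, 1.84, 1.89, 1.88 and 1.89 on Tlr9-deficient arrays, all of them not well above background. The rest ran from 3.08 to 4.52 with a median of 4.16, of which 3 of 7 were well above background. With Tlr9-deficient values raised to the lowest detectable signal of each array, the mean was 1.05-fold lower than that of the rest. Undetected values of the rest were used as they were, so this is no lower bound, and the data give the fall no size. This ratio was not tested. The test used the undetected signals as they were (limma adjusted p = 0.000237). Hyal3 entered the test only through arrays with Tlr9, and the count of 10 includes it. With normexp background correction the call was lost (limma adjusted p = 0.0502). Its neighbours were not alike. Hyal1, the lysosomal hyaluronidase, read 9.28 to 9.75 with a probe whose other arrays stayed at or below 9.10 (difference 0.60, SE 0.15, limma adjusted p = 0.565), while a brighter Hyal1 probe differed by -0.03 (SE 0.14). Both Hyal2 probes overlapped between the sets, with differences of -0.11 and -0.00210.

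Nme6, a member of the nucleoside diphosphate kinase family at 3.62 Mb, was lower with all 3 of its probes, and 2 of them passed. The first of these read 8.23, 8.18, 8.09, 8.25 and 8.18 against 8.78 to 9.17 (median 8.91), a difference of -0.75 (SE 0.09, limma adjusted p = 0.0203). The next read 10.87, 10.78, 10.62, 10.64 and 10.66 against 11.21 to 11.39 (median 11.26), a difference of -0.57 (SE 0.07, limma adjusted p = 0.0307). In both, every Tlr9-deficient array lay below every other array. The third probe differed by -0.81 (SE 0.17, limma adjusted p = 0.341) and its sets overlapped. The call was lost when any genotype was left out (limma adjusted p 0.0603 to 0.539) and on slide 1 alone (0.0880).

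Wdr82, a subunit of histone H3K4 methyltransferase complexes, lies nearest to Tlr9 among the changed genes, at -0.05 Mb. It read 5.36, 5.48, 5.96, 5.28 and 5.42 against 3.49 to 4.83 (median 4.42), and 4 of those 7 other arrays were well above background. The difference was 1.36 (SE 0.18, limma adjusted p = 0.0459). The other, brighter Wdr82 probe was higher on all 5 arrays by a difference of 0.40 (SE 0.07, limma adjusted p = 0.218) and did not pass. The call at Wdr82 was lost without the second IMQ array of Tlr7-/-Tlr9-/- (limma adjusted p = 0.0681) or of Card14-/- (limma adjusted p = 0.0537), and over all alternatives the adjusted p ran from 0.0197 to 0.871. With normexp its difference was 0.42, and it was 0.66 in the authors' deposited log2 table.

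LOC102641261, at -1.16 Mb, read 3.04, 3.25, 4.26, 2.78 and 3.21, with 1 of 5 arrays well above background, against 4.87 to 5.70 (median 5.21) on the rest, all 7 detected. The difference was -1.83 (SE 0.22, limma adjusted p = 0.0244). The test used the undetected signals as they were, so the data give the fall no firm size. With 1 detected Tlr9-deficient array, the probe passed the signal filter only through arrays with Tlr9. The difference was -0.45 with normexp and -0.68 in the authors' deposited log2 table. The call was lost with scaling to the 75th percentile (limma adjusted p = 0.0707), on slide 1 alone (0.0557), and when any genotype but Tlr9-/- was left out (0.134 to 0.253).

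**Figure D2:**
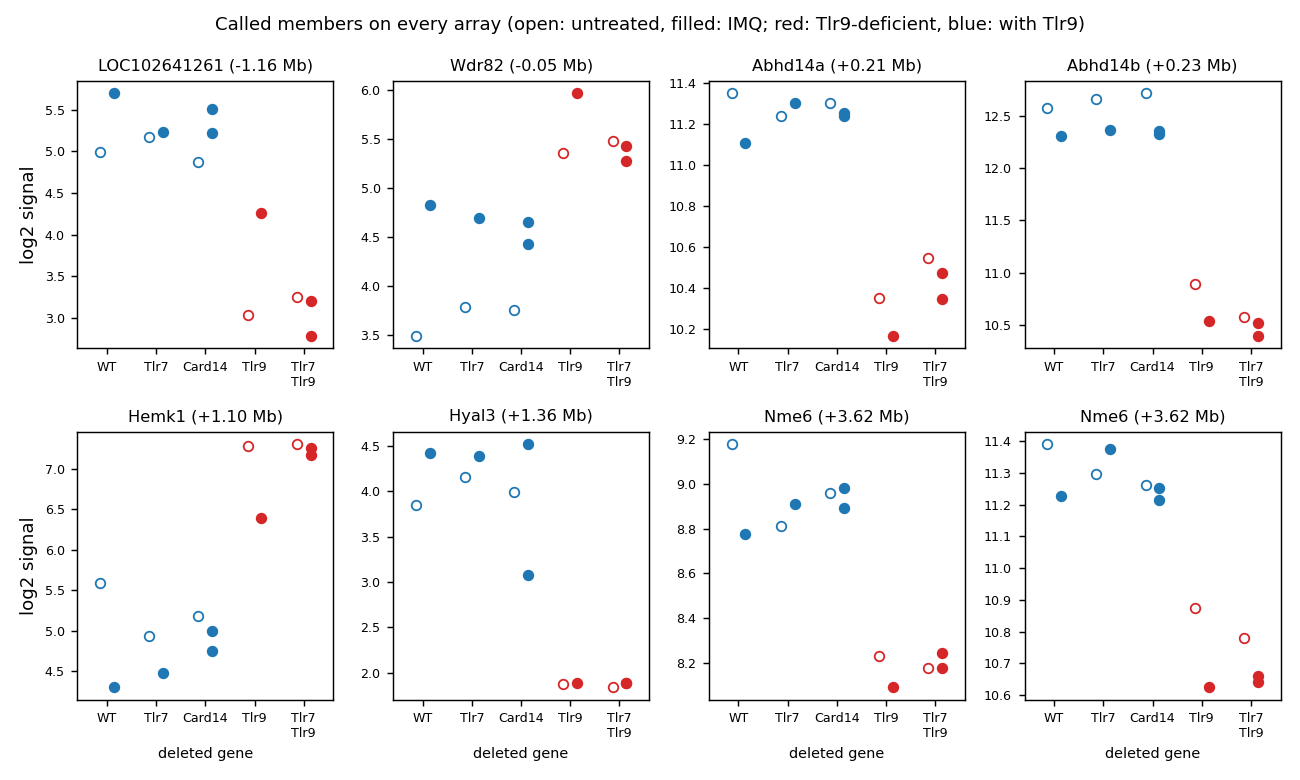
Log2 signal of 8 called member probes on each of the 12 arrays, by deleted gene, with untreated arrays open and IMQ arrays filled. In every panel the 5 Tlr9-deficient arrays (red) lie apart from the 7 others (blue), as for Abhd14b with 10.39 to 10.89 against 12.30 to 12.72; each panel has its own vertical scale.

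Separation of the arrays gave a wider set of neighbours. In 29 members, 6.28%, all 5 Tlr9-deficient arrays lay on a single side of the other 7, against 0.501% of all probes tested (186 of 37125). There were 14 higher and 15 lower, beside 0.288% and 0.213% of all probes, and all 10 called members were among them. The 19 that were not called are named here after their values were seen, and no test supports them singly. Atp2c1, the Golgi calcium and manganese pump whose human gene is mutated in Hailey-Hailey disease of the skin, was higher with 3 of its 5 probes, by 0.42, 0.37 and 0.48. Its other probes overlapped, with differences of 0.12 and -0.98. Parp3, an ADP-ribosyltransferase of the DNA break response, read 6.07 to 6.88 against 7.21 to 8.20 (difference -1.30, SE 0.21, limma adjusted p = 0.115), and its 2 other probes were lower without separating, with differences of -0.66 and -0.58. Dcaf1, a substrate receptor of Cul4 ubiquitin ligases, was higher with 2 of 4 probes, by 0.94 and 0.32.

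Further up, Cacna2d2, an auxiliary calcium channel subunit, differed by -0.53. Nckipsd, an SH3 protein that binds Nck, differed by -0.43 and -0.58 with 2 of 3 probes. A further Nckipsd probe, to which the files give no position and which is therefore no member, was separated and called (difference -0.61, SE 0.07, limma adjusted p = 0.0236). Atrip, the partner of the checkpoint kinase ATR, differed by -0.28. Tmie, needed for hearing in the inner ear, differed by 0.79, Als2cl by 0.28, 6430571L13Rik by 0.62 and the unnamed BI319373 by 0.67. Pxylp1, a phosphatase of glycosaminoglycan synthesis at -9.41 and -9.34 Mb, had its 2 probes separated in opposite directions, by -0.47 and 1.67. Those 2 probes are the only separated members below -1.16 Mb. Of 21 genes or unnamed probes with a separated member, 10 had at least 2 member probes, and in 3 of these all were separated. In 4 of the 10, at least 1 member probe had the opposite sign to a separated one.

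The genes right beside Tlr9 were mostly not called. Of the 5 nearest measured genes on each side, Twf2, Ppm1m, Wdr82, Glyctk and Col6a5 below and Alas1, Poc1a, Dusp7, Rpl29 and Acy1 above, 1 was called, Wdr82. By probes, the share called near Tlr9 was still above the background. Within 0.5 Mb it was 9.09% of 33 members, against 2.16% of all members and 0.0862% of all probes. The 3 probes of Alas1, the rate-limiting enzyme of haem synthesis, lie 0.01 Mb away and differed by -0.02, 0.17 and 0.17 (SE 0.08 to 0.10). Twf2, an actin-binding twinfilin whose probe is 0.01 Mb below, differed by 0.29 (SE 0.10, limma adjusted p = 0.936). Dusp7, a MAP kinase phosphatase, read 13.15 to 14.04 against 13.58 to 14.49 (difference -0.55, SE 0.10, limma adjusted p = 0.186). Col6a5, a collagen VI chain, differed by 1.39 (SE 0.29) with its brighter probe, and its ranges overlapped between the sets. Called genes and genes that were not called lay side by side.

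Over the whole window, the share of separated members was greatest near Tlr9. It was 26.3% of 19 members in the 1 Mb below, all 5 of them probes of Atp2c1 or Wdr82, and 1 of 6 members (16.7%) between 1 and 2 Mb below. It was 17.9% of 39 in the 1 Mb above, 7.46% of 67 between 1 and 2 Mb above and 6.42% of 109 between 2 and 5 Mb above. Between 5 and 10 Mb above it was 2.6% of 77. Below -2 Mb it was 0 of 51 members to -5 Mb and 2.13% of 94 to -10 Mb, the latter being the 2 Pxylp1 probes. Within 1 Mb on either side 20.7% of 58 members were separated, within 2 Mb 13.7% of 131 and within 5 Mb 8.59% of 291. These shares are descriptions, as probes of a gene share its RNA.

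The changed stretch was not continuous along chromosome 9. The ranges given here differ from the bins above, and their borders follow where separated probes lay, so they are a description. The range that starts at -9 Mb leaves out the 2 separated Pxylp1 probes just below it. From -2 to 6 Mb, 27 of 249 members were separated and 10 called, while from -9 to -2 Mb and from 6 to 10 Mb (68 members) none was separated or called. From 10 to 20 Mb (164 probes) and from -20 to -10 Mb (131 probes) the counts were also 0. Between -65 and -20 Mb, however, 61 of 834 probes were separated (7.31%) and 15 called (1.8%), and between -110 and -65 Mb none of 425. Of 35108 probes that the files do not place on chromosome 9, 96 were separated, 0.273%, and 7 called, among them the Nckipsd probe without a position. Chromosome 9 held 25 of the 32 called probes by the files' positions, 10 of them in the window.

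**Figure D3:**
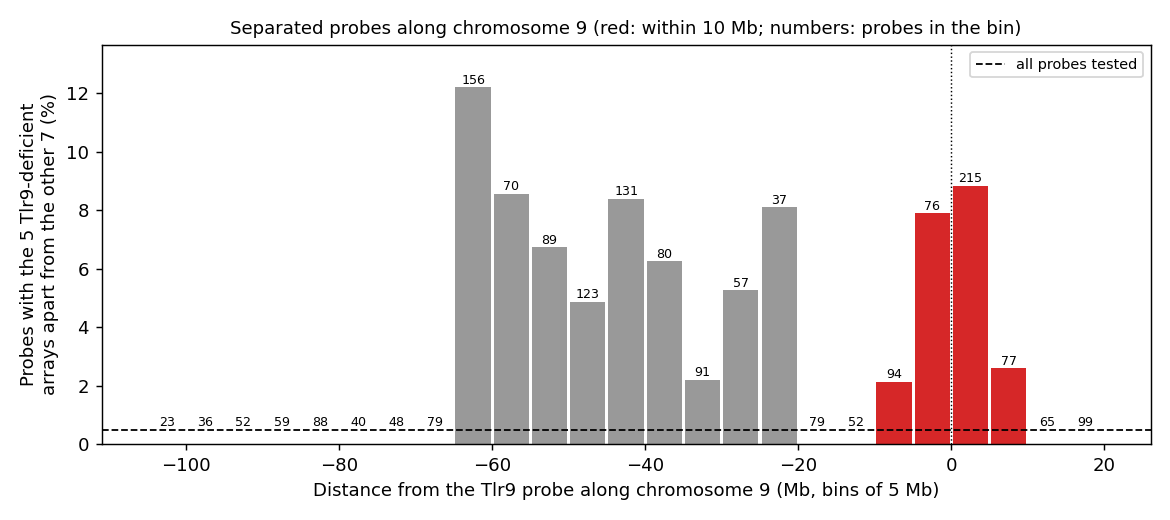
Share of probes with all 5 Tlr9-deficient arrays on a single side of the other 7 (percent, vertical axis) in bins of 5 Mb along chromosome 9 by distance from the Tlr9 probe, with the number of probes above each bar and the window in red. The share was 8.84% of 215 probes from 0 to 5 Mb, 0 from -20 to -10 Mb and up to 12.2% of 156 probes from -65 to -60 Mb; the dashed line marks 0.501% of all probes.

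The 2 Tlr9-deficient lines were compared separately with the same 7 arrays, so they share their controls and the counts are set side by side. In Tlr9-/-, 5 members passed, against 0.0673% of all probes. Abhd14a, Abhd14b, Hemk1 and Hyal3 were among them. In Tlr7-/-Tlr9-/-, 4 members passed, against 0.0404%. Abhd14b, Hemk1 and Hyal3 were among them. Hyal3 was not well above background on any array of either line, so its calls rest on undetected values. Abhd14b differed by -1.78 in Tlr9-/- and -1.97 in Tlr7-/-Tlr9-/-, and Hemk1 by 1.94 and 2.36. Abhd14a differed by -0.78 in Tlr7-/-Tlr9-/-, where its limma adjusted p was 0.0627.

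Between the lines themselves no member passed (limma), with 0.0135% of all probes called, and the smallest adjusted p of a member was 0.857. At an unadjusted p under 0.05 there were 23 members, 4.98%, near the 4.71% of all probes. The difference between lines was -0.20 for Abhd14b, 0.42 for Hemk1 and 0.22 for Abhd14a. A typical standard error of this comparison was 0.21, so differences of that size between lines were not detectable.

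The untreated and IMQ sets share no array, but the called members were chosen from the fit that pools both, so their values in each set are a description. In untreated skin Abhd14b differed by -1.91, Hemk1 by 2.05, LOC102641261 by -1.87 and Wdr82 by 1.74. After IMQ the same differences were -1.84, 2.25, -1.80 and 0.97. LOC102641261 was mostly undetected on Tlr9-deficient arrays, so its differences give no firm size. With 5 or fewer groups in each test, no member passed in untreated skin (limma, smallest adjusted p 0.0582, 0.0135% of all probes called) or after IMQ (limma, 0.00269% called). At an unadjusted p under 0.05 there were 78 members untreated, 16.9% against 5.76% of all probes, and 37 after IMQ, 8.01% against 2.16%. Other settings called members in untreated skin: 3 in the authors' deposited log2 table, 4 with normexp background correction and 2 among probes detected on all 12 arrays.

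Over all members, 67.1% had the same sign untreated and after IMQ, beside 60.2% of all probes. Among the 18 members that differed by at least 1 in untreated skin, 17 had the same sign after IMQ, 94.4%, beside 70.6% of 521 such probes overall. Across members the 2 sets of differences correlated at r = 0.63 (Spearman 0.52, n = 462), beside 0.31 over all probes; probes are not independent and share depth and normalization, so this is a description.

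**Figure D4:**
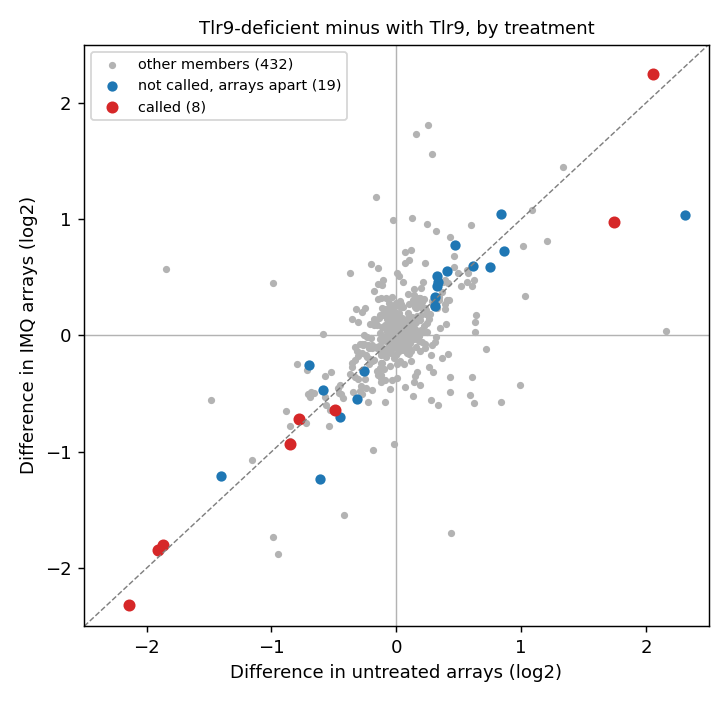
Difference between Tlr9-deficient genotypes and genotypes with Tlr9 (log2) in IMQ arrays (vertical) against untreated arrays (horizontal) for the 459 members shown, with called members in red and separated ones in blue. Called members lie near the dashed line of equal differences, such as Abhd14b at -1.91 and -1.84, except Wdr82 at 1.74 and 0.97.

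Whether the IMQ response itself depended on Tlr9 status was tested as an interaction. No member passed and no probe of 37125 did (limma, 0% called), with 8 members at an unadjusted p under 0.05, 1.73% against 1.56% of all probes. A typical standard error of the interaction was 0.29, so interactions of that size were not detectable. Among the called members the largest interaction was at Wdr82, -0.77, and at Abhd14b it was 0.07. Averaged over the 5 genotypes, IMQ changed 113 members, 44 higher and 69 lower, or 24.5% against 24% of all probes (10.7% higher and 13.4% lower), a share near the background. With each array scaled to its 75th percentile the split was 56 higher and 55 lower.

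The slide that held 2 arrays each of IMQ Tlr7-/-Tlr9-/- and IMQ Card14-/- gave a comparison within a single slide. There 18 members passed, 3.9% against 1.97% of all probes, and 7 of the 10 members called above were among them. Its arrays also entered the comparison above, so it is no separate evidence. The 2 genotypes also differ in Tlr7 and Card14, so a difference here cannot be assigned to Tlr9 status. Abhd14b differed by -1.89 (limma adjusted p = 0.00987) and Hemk1 by 2.34 (limma adjusted p = 0.0187). Parp3 passed here, by -1.14 (limma adjusted p = 0.0112), as did a Dcaf1 probe, by 0.79 (limma adjusted p = 0.0366). With 2 arrays a group the count was unsteady, at 0 to 2 members when any array was left out.

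Genes of the window were also grouped by role. Of 11 measured genes of skin structure and matrix (15 probes), Hyal3 passed, undetected on Tlr9-deficient arrays, and no other; the share called was 0.0862% of all probes and 2.16% of members. Col7a1, the anchoring fibril collagen of the basement membrane, differed by -0.35 (SE 0.10, limma adjusted p = 0.732), and the list's median difference was -0.03, beside 0.03 over all probes. The IMQ counts of these lists stand beside 10.7% of all probes higher and 13.4% lower, a split that moves with the scaling as given above. With IMQ, 4 of its 15 probes fell: a Col6a5 probe fell by 1.68, a dimmer one was well above background on only 2 of the 12 arrays, Sema3b, a secreted semaphorin, fell by 0.55 and Sema3f fell by 0.37. Of 14 genes of chromatin, cell cycle and RNA (37 probes), 2 passed, of which Wdr82 was higher, and the list's median difference was -0.000140. Its IMQ response went both ways, with 4 probes higher, among them Smarcc1, a chromatin remodelling subunit, by 1.06, and 3 lower, among them a probe of Topbp1, a replication checkpoint protein, with a difference of -0.33. Another Topbp1 probe was among the 4 that rose, by 0.64.

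None of 8 myeloid and interferon related genes (11 probes) passed for Tlr9 status, with a median difference of -0.09. Cish, an inhibitor of cytokine signalling through STAT5, read 11.91 to 12.51 on Tlr9-deficient arrays against 11.28 to 12.02 on the rest (difference 0.52, SE 0.09, limma adjusted p = 0.167). It rose with IMQ by 0.44 (limma adjusted p = 0.0161), the only probe of its list to do so. None of 11 genes of mitochondria, haem and redox (19 probes) passed for Tlr9 status, with a median of 0.02. Of these probes 5 fell with IMQ, among them Acad11, a mitochondrial acyl-CoA dehydrogenase, with differences of -0.78 and -0.43 at 2 of 4 probes. None of 10 GTPase and kinase signalling genes (19 probes) passed for Tlr9 status, with a median of 0.06, while 7 of these probes fell with IMQ and 1 rose. The adaptor Nck1 fell by 0.51 and 0.43, the PI3-kinase subunit Pik3cb by 0.48 and 0.68, and a probe in Map4 rose by 1.03.

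The same window was examined around the other targeted genes. Within 10 Mb of Tlr7 on chromosome X, none of 123 probes passed between Tlr7-deficient and other genotypes (limma, 0.00269% of all probes called), and 2 reached an unadjusted p under 0.05, 1.63% against 1.58%. Within 10 Mb of Card14 on chromosome 11, none of 425 passed between Card14-/- and the others (limma, 0% called), and 21 reached an unadjusted p under 0.05, 4.94% against 3.09%. No member of the Tlr9 window passed in either of those comparisons. Neither fit had a term for Tlr9 status, so differences by Tlr9 status entered its error. This widened the error at members that differed by Tlr9 status, so the absence of calls there is no contrast to them. These windows differ in gene content and the comparisons in how many groups carry the deletion, so the counts are set side by side with no test between them.

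**Figure D5:**
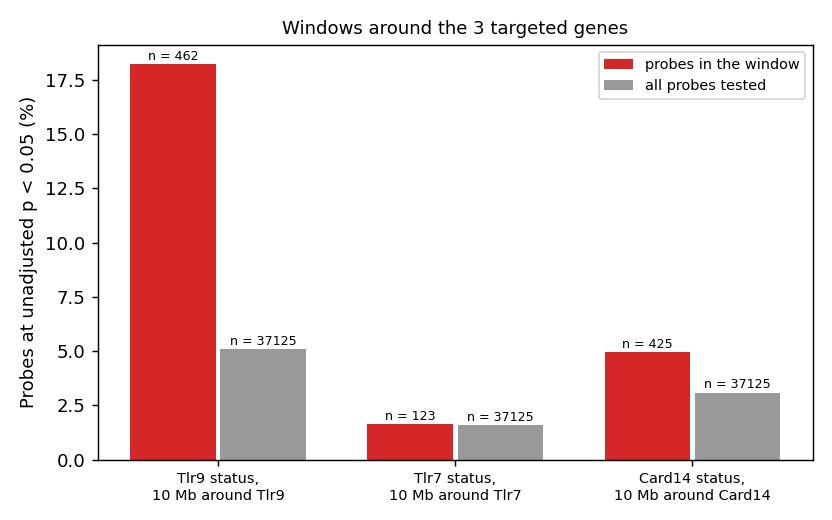
Share of probes at an unadjusted p under 0.05 (percent) within 10 Mb of each targeted gene (red) and over all 37125 probes (grey), each for the status of that gene. The share was 18.2% against 5.1% around Tlr9, 1.63% against 1.58% around Tlr7 and 4.94% against 3.09% around Card14.

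Apart from position, the separated members shared little that was measured. Their probes had a median GC content of 45%, the same as the other 433 members, and a median level of 8.37 beside 8.05. Of the 29, 15 lay on the plus strand. The strand of the gene was known for 25 of the 29 and for 340 of the other 433 members, and none of these probes was antisense to its gene.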

How the data were processed

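Scanner intensities (processed signal, Agilent Feature Extraction 10.7.3.1 per the file headers; 10.5.1.1 per the submitters' processing notes) of 12 single-colour arrays were taken as deposited, background-subtracted by the authors' software. Log2 values of all spots that are not controls were quantile normalized. Spots with an outlier flag were then dropped and the remaining spots of a probe averaged, and 235 probes with no unflagged spot on an array were left out. Probes well above background on 2 arrays were kept (37125). Repeat arrays were averaged to 10 group values. limma 3.58.1 (R 4.3.3) was fitted to all probes with treatment as a term, with Benjamini-Hochberg adjustment and a threshold of 0.05. The fit for Tlr9 status was also run on simulated group values with independent errors. These held no effect shared by the untreated and IMQ values of a genotype, so that run does not cover such effects. The authors' deposited log2 table, of the same arrays, served as an alternative. Probe positions (mm9) come from the files, and no exon, intron or UTR annotation was used. Named were called members, the 5 nearest genes on each side, the targeted genes and the role lists, with other members as stated. The members, lists and rules were chosen with earlier results of these data known. Replicate numbers did not pair the arrays (correlation of deviations 0.03). Some measured members are not reported here by name, though counts include them.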

Additional observations from a re-analysis of the deposited data

Results flagged for a closer look

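In 3 of 20 sets of arrays checked (the Tlr9-deficient arrays and the others, for each called member), an array lay far from the rest of its set by Dixon's criterion, which chance meets in about 1 set in 20. The IMQ Tlr9-/- array read 5.96 for Wdr82, above the 5.28 to 5.48 of the other Tlr9-deficient arrays, and 6.39 for Hemk1, below their 7.17 to 7.30. The untreated Tlr7-/-Tlr9-/- array read 1.84 for Hyal3, below the 1.88 to 1.89 of the rest, where no array was well above background.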

How the results depend on the processing

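The count of members called for Tlr9 status, 10, became 17 with the slide as a block, 6 on slide 1 alone, 19 with all 12 arrays as separate values and 6 of 131 members within 2 Mb. It was 5 without WT, 3 without Tlr7-/-, 3 without Card14-/-, 4 without Tlr9-/-, 5 without Tlr7-/-Tlr9-/- and 3 with genotype as 5 levels. The cause was not tested. Fits that leave out a genotype also hold fewer groups. Abhd14b was called in all 16 alternatives run for it, Hyal3 in 14 of 15, Abhd14a in 11 of 16, Hemk1 in 10 of 15, Nme6 in 9 of 16, LOC102641261 in 8 of 15 (run after seeing the data) and Wdr82 in 6 of 15, and no direction of these reversed. Hyal3 and LOC102641261 passed the signal filter only through arrays with Tlr9. The undetected Tlr9-deficient values of Hyal3 had almost no spread, so its count of calls is no added support. Of the 7 called genes that carry a reference gene name (LOC102641261 has none), 4 were called among the probes detected on all arrays, 4 without WT, and 3 without Tlr7-/-, Card14-/- or Tlr9-/- or with 5 levels. In untreated skin the count of 0 became 3 in the authors' deposited log2 table, 4 with normexp and 2 with detection on all arrays. Within the IMQ repeat arrays the 18 calls became 39 in the deposited table, 0 with the replicate number as a block and 0 to 2 when an array was left out. The 29 separated members became 17 with a single probe per gene, and the Card14 window gave 1 call in the deposited table. Leaving out a repeat array gave 9 to 10 calls for Tlr9 status. Single arrays per group and low signal at Hyal3, LOC102641261 and Wdr82 limit precision.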
